A study of Homo sapiens with 14 samples.

Results

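The genes described here are 5 subunits of the NF-kappaB transcription factors (NFKB1, RELA, REL, NFKB2 and RELB), 3 inhibitor genes of the IkB family (NFKBIA, NFKBIB and NFKBIE) and 2 genes induced by TNF, TNFAIP3 and TNFAIP2. They were chosen by name and matched by symbol to the Ensembl identifiers of the count table, which gave 10 of its 61533 genes. All 10 were among the 16056 genes that passed the filter on low counts. RNA was sequenced from cultures of a human neuroblastoma cell line, SH-EP, which is established and of the adherent, mesenchymal kind. The 4 groups used were SPARK-ON cells with lenalidomide (3 libraries), SPARK-ON cells with its solvent DMSO (3 libraries), control cells with lenalidomide (2 libraries) and control cells with DMSO (3 libraries). Both lines carry n-Myc, and no dose, time or promoter could be read from the labels. The series describes the SPARK-ON line as 1 clone whose n-Myc stays below the level at which it forms a separate phase, with lenalidomide as the drug that brings that phase about, and the control line, which has no SPARK-ON, as the measure of the drug itself. A difference between the lines and a difference between clones therefore cannot be told apart. The labels give replicates by number only, so p-values measure the spread between these samples, which may be technical. In bulk RNA, fewer cells expressing a gene and less RNA per cell cannot be told apart either.

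NF-kappaB factors are dimers of the subunits, and in resting cells the IkB proteins hold them in the cytoplasm. In the canonical pathway, signals from TNF, interleukin or Toll-like receptors activate the IKK kinases, which mark IkB proteins for destruction and free dimers that mostly hold RELA and the product of NFKB1. In the noncanonical pathway, the kinase NIK (gene MAP3K14) drives the processing of the NFKB2 precursor, which acts with RELB. NFKBIA, TNFAIP3, NFKB2 and RELB are themselves well-known target genes of the factors, the first pair as feedback inhibitors.

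RefSeq promoter windows, from 250 bases before to 50 bases after an annotated transcription start (build GRCh38.p14), were at hand for 8 of the 10 genes, in 13 windows. RELB and NFKBIE are named only. The kappaB consensus, the 10-letter element that the factors bind, was searched on both strands and was present for 6 of these 8 genes, against 13.3% of 27305 genes in the same table. The stretches before the start are shown for the 3 genes with the largest differences between the lines, for NFKB1, which has the element and differed little, and for TNFAIP2, which differed and has no match. Capitals mark matches to the kappaB consensus.
NFKB2, start 3, chr10:102395525-102395704, plus strand: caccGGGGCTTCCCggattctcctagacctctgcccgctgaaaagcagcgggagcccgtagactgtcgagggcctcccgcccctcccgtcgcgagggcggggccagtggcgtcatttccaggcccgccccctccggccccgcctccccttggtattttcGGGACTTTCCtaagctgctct
NFKBIA, chr14:35404750-35404929, minus strand: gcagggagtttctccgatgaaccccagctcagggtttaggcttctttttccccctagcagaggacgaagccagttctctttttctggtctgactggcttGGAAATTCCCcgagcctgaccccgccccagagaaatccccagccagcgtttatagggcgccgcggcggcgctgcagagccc
TNFAIP3, chr6:137867079-137867217, plus strand: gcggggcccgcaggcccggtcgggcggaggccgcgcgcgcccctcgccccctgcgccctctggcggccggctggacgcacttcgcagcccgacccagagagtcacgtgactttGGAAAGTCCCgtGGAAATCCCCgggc
NFKB1, start 1, chr4:102501179-102501358, plus strand: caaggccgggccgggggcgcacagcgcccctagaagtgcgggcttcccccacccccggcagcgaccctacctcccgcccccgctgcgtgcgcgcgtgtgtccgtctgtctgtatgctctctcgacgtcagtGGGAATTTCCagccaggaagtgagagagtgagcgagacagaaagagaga
TNFAIP2, chr14:103123281-103123460, plus strand: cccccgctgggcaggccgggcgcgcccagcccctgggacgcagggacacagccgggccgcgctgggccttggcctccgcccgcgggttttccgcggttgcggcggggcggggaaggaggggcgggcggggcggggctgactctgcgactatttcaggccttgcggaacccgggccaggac

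TNFAIP3 carried 2 kappaB matches side by side, at bases -67 and -55 from its start, and NFKBIA carried 1 match at base -81. NFKB2 held matches at starts 2 and 3 and none at start 1. REL had 1 match, GGGAAATTCCC, and NFKBIB had matches at start 2, one of them GGGAATTTCCC. The RELA windows held none. Thus genes with a match included 3 of the genes that were higher in SPARK-ON cells as well as NFKB1, REL and NFKBIB, which were not. The E-box CACGTG, the element that Myc proteins bind, was searched on both strands and was found in 1 gene, TNFAIP3, at base -78, against 8.77% of genes. The AP-1 element TGANTCA was also found in 1 gene, NFKBIB, against 9.37% of genes. None of these matches overlapped one of another motif. A match describes the letters only, and no binding was measured here.

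Library totals ranged from 6614671 counts, in SPARK-ON lenalidomide replicate 3, to 21511684. Levels below are TMM-scaled CPM, which set each count against its library size. MYCN, the gene of n-Myc, averaged 2508 ± 101 CPM in SPARK-ON cells with lenalidomide, 2277 ± 109 with DMSO, 2546 ± 305 in control cells with lenalidomide and 2426 ± 292 with DMSO (SD). Control DMSO replicate 1 stood apart from the other libraries of its group. Leaving it out changed the calls of RELA and NFKBIB between the lines with DMSO, given below. The sign turned for REL, and for RELB with lenalidomide in control cells, from -0.04 to 0.09. It turned too for NFKBIA in the difference between lines in the drug response, from 0.01 to -0.08. None of the changes that turned sign was called. Of the 8 mesenchymal markers all were expressed, and their summed level was 1360 to 1540 CPM in SPARK-ON libraries, against 2700 to 2870 CPM in control libraries. VIM and CD44 made up most of that sum, and the markers did not move together. With DMSO, FN1 (log2 change 0.59) and NT5E (1.40) were called higher in SPARK-ON cells. VIM (-1.21), CD44 (-1.25) and WWTR1 (-1.42) were called lower, and the other 3 were not called. The share called was 62.5%, beside 41.6% of all genes. Summed levels of immune markers were 3.27 to 4.89 CPM in SPARK-ON libraries and 1.25 to 1.86 CPM in control libraries, and CD3E and MS4A1 had no counts. That difference lay mostly in ITGAM, with 3.02 and 1.82 CPM in SPARK-ON cells with lenalidomide and DMSO. In control cells ITGAM had 0.0632 and 0 CPM. CD14, the other immune marker tested, was not called between the lines. Adrenergic markers summed to 5 to 8.73 CPM, with PHOX2A at 0 counts. Endothelial markers summed to 3.02 to 7.27 CPM in SPARK-ON libraries, against 1.12 to 2.86 CPM in control libraries, and epithelial markers to at most 2.94 CPM. The part of these differences in the results below was not tested.

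The question for the lines was whether SPARK-ON cells and control cells differ in these genes, first with DMSO and then with lenalidomide. In both settings the noncanonical subunits NFKB2 and RELB, the inhibitors NFKBIA and NFKBIE, and TNFAIP3 and TNFAIP2 were higher in SPARK-ON cells, while the canonical subunits NFKB1, RELA and REL did not pass the test. With DMSO, 6 of the 10 genes were higher and 1 lower at an adjusted p below 0.05, where 41.6% of all genes tested were called (21.1% higher and 20.4% lower). With lenalidomide the counts were again 6 higher and 1 lower, where 39.4% of all genes were called (19.7% in each direction). The lines thus differed widely, and 7 of 10 is to be read against that. The median log2 change of the 10 genes was 0.83 with DMSO and 0.95 with lenalidomide, beside 0.01 and 0.02 for all genes tested. The same 7 genes were called in the same direction in both settings, as were 32.6% of all genes tested.

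**Figure D1:**
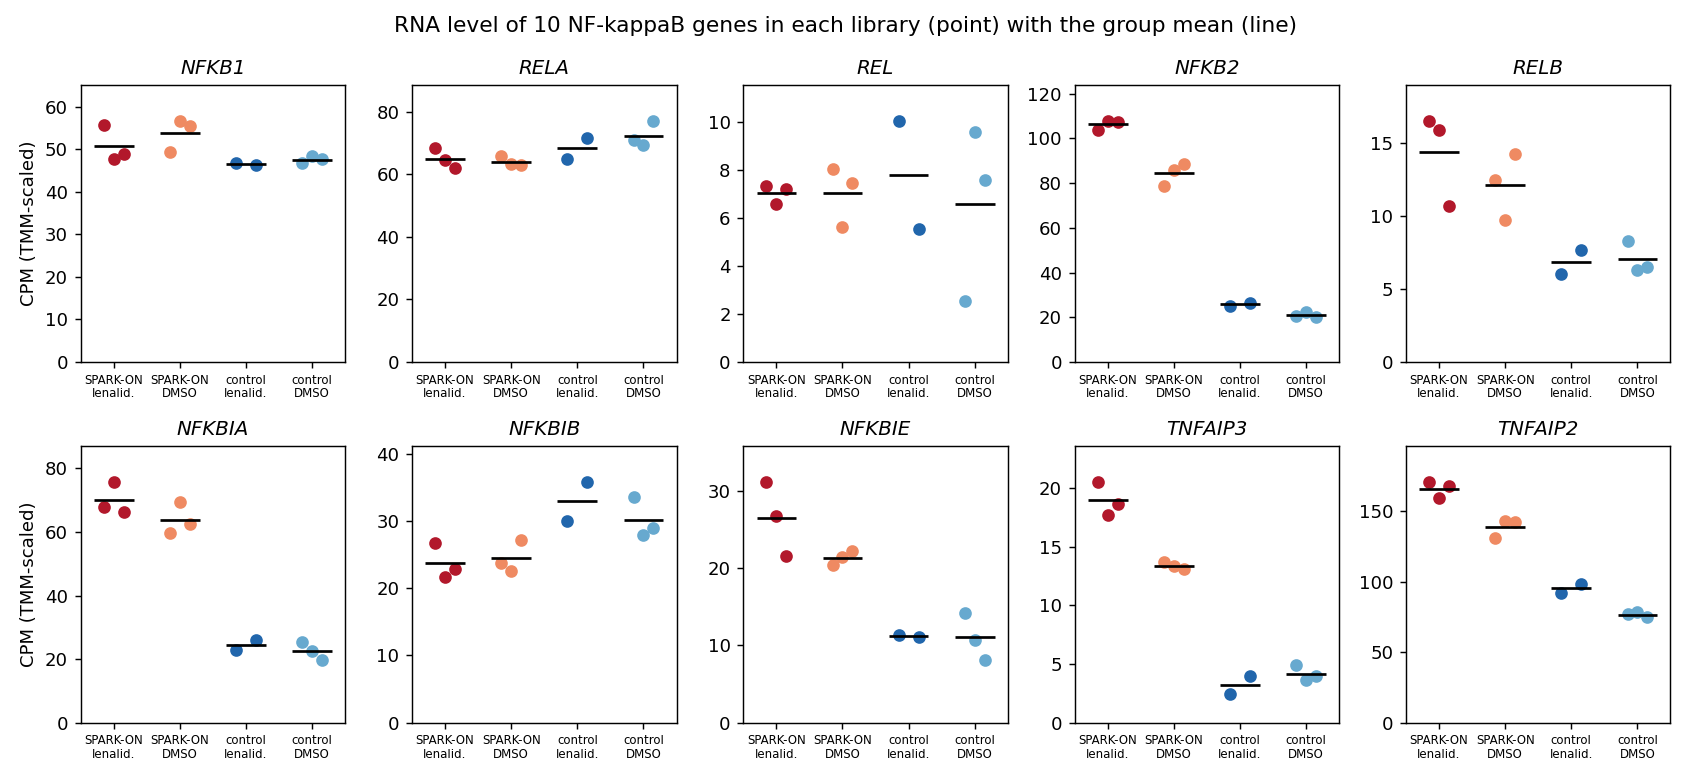
Level of each gene (CPM, linear axes that start at 0 and differ between panels) in each of the 11 libraries (points) with the group mean (line). NFKB2, NFKBIA and TNFAIP3 were 2.84-fold to 5.86-fold higher in SPARK-ON than in control cells, and the NFKB1, RELA and REL groups lie close together.

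Of the canonical subunits, NFKB1 (chr4:102501329-102617302, plus strand, in the GENCODE 29 annotation of GRCh38, as for all gene positions here) makes a precursor processed to a DNA-binding subunit. NFKB1 had 55.7, 47.6 and 48.98 CPM in SPARK-ON cells with lenalidomide and 49.4, 56.6 and 55.4 CPM with DMSO, against 46.7 and 46.2 CPM in control cells with lenalidomide and 46.7, 48.3 and 47.7 CPM with DMSO. The SPARK-ON libraries lay above the control libraries of the same treatment, by a small margin. Here and below, such separation of the lines is a description only, since its share over all genes is not given. The log2 change was 0.18 with DMSO (SE 0.0854, adjusted p = 0.107) and 0.13 with lenalidomide (SE 0.0974, adjusted p = 0.306). NFKB1 is called with DMSO when libraries are scaled by their totals alone (adjusted p = 0.0182) and among genes with a mean of at least 5 CPM (adjusted p = 0.0453).

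RELA (chr11:65653596-65663094, minus strand) encodes the main activating subunit. RELA had 68.5, 64.7 and 62.1 CPM in SPARK-ON cells with lenalidomide and 65.8, 63.2 and 63.1 CPM with DMSO, against 65.1 and 71.6 CPM in control cells with lenalidomide and 70.9, 69.2 and 77.1 CPM with DMSO. The groups did not overlap with DMSO, where SPARK-ON cells were the lower, and overlapped with lenalidomide. The log2 change of RELA was -0.18 with DMSO (SE 0.0781, adjusted p = 0.0783) and -0.07 with lenalidomide (SE 0.0883, adjusted p = 0.583). Without control DMSO replicate 1 the first passes the test, at -0.20 (adjusted p = 0.0405).

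REL (chr2:60881521-60931610, plus strand) encodes a subunit best known from lymphoid cells. It had 7.33, 6.61 and 7.21 CPM in SPARK-ON cells with lenalidomide and 8.04, 5.61 and 7.46 CPM with DMSO, against 10.1 and 5.53 CPM in control cells with lenalidomide and 2.55, 9.58 and 7.60 CPM with DMSO. All groups overlapped, and the control libraries spread widely, with control DMSO replicate 1 the lowest of all. The log2 change of REL was 0.11 with DMSO (adjusted p = 0.822) and -0.14 with lenalidomide (adjusted p = 0.794). Each direction rested on 1 library: without control DMSO replicate 1 the first was -0.29 (adjusted p = 0.285), and without control lenalidomide replicate 1 the second was 0.34 (adjusted p = 0.601). REL shares 5702 of its 13170 exonic bases with AC010733.2, an RNA gene on the same strand, so its count is uncertain.

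The noncanonical subunit NFKB2 (chr10:102394110-102402529, plus strand) showed the clearest difference among the subunits. It had 104, 108 and 107 CPM in SPARK-ON cells with lenalidomide and 78.6, 85.8 and 88.7 CPM with DMSO, against 25.1 and 26.3 CPM in control cells with lenalidomide and 20.6, 22.5 and 19.9 CPM with DMSO. The 4 groups did not overlap, and every SPARK-ON library was far above every control library. NFKB2 was 4.03-fold higher in SPARK-ON cells with DMSO (log2 change 2.01, SE 0.0839, adjusted p = 1.5e-12) and 4.13-fold higher with lenalidomide (log2 change 2.05, SE 0.0969, adjusted p = 1.23e-11). Its partner RELB (chr19:45001430-45038198, plus strand) was present at a lower level, with 16.5, 16.0 and 10.7 CPM in SPARK-ON cells with lenalidomide and 12.5, 9.77 and 14.3 CPM with DMSO, against 6.01 and 7.66 CPM in control cells with lenalidomide and 8.30, 6.31 and 6.5 CPM with DMSO. SPARK-ON and control libraries of RELB did not overlap in either setting, although replicates differed more than for NFKB2. RELB was 1.74-fold higher with DMSO (log2 change 0.80, SE 0.182, adjusted p = 0.00174) and 2.15-fold higher with lenalidomide (log2 change 1.10, SE 0.21, adjusted p = 0.000393).

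Levels were also set against gene length, as CPM per kb of merged exon. On that scale NFKB2 made up 48.4% ± 2.46 of the RNA of the 5 subunits in SPARK-ON cells with lenalidomide (SD, n = 3). With DMSO it made up 43.1% ± 1.34 in SPARK-ON cells (n = 3). In control cells the NFKB2 share was 20.1% ± 0.115 with lenalidomide (n = 2) and 16.5% ± 1.22 with DMSO (n = 3). Merged exons join the exons of all annotated transcripts of a gene, which gave 5464 bases for RELA and 4484 for NFKB2. Lengths of the expressed transcripts were not measured, so shares and ranks between genes are uncertain. By this scale NFKB2 was the most abundant subunit RNA in SPARK-ON cells. In control cells that place was held by RELA, with 43.8% ± 1.21 of subunit RNA with lenalidomide and 46.7% ± 1.98 with DMSO, against 24.3% ± 0.408 and 26.9% ± 1.58 in SPARK-ON cells with lenalidomide and with DMSO. NFKB1 came next in control cells, at 26.1% ± 1.2 and 26.8% ± 0.496. The group means of RELB lay between 7.88% and 9.65% and those of REL between 1.09% and 2.09%. The REL share is uncertain, since 5702 of its 13170 exonic bases are shared with another gene on the same strand. Libraries of the lines overlapped for RELB in both treatments and for REL with DMSO, and the REL share was lower in SPARK-ON cells with lenalidomide (1.02% to 1.16%, against 1.43% to 2.76%). Since these are shares, the lower RELA and NFKB1 shares in SPARK-ON cells go with the higher NFKB2 level, while the levels of RELA and NFKB1 themselves did not pass the test. The ratio of NFKB2 to NFKB1 counts was 1.87 to 2.26 in SPARK-ON libraries with lenalidomide and 1.52 to 1.60 with DMSO, against 0.538 to 0.570 in control libraries with lenalidomide and 0.417 to 0.466 with DMSO. These are RNA levels, and processing of the NFKB2 precursor was not measured.

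**Figure D2:**
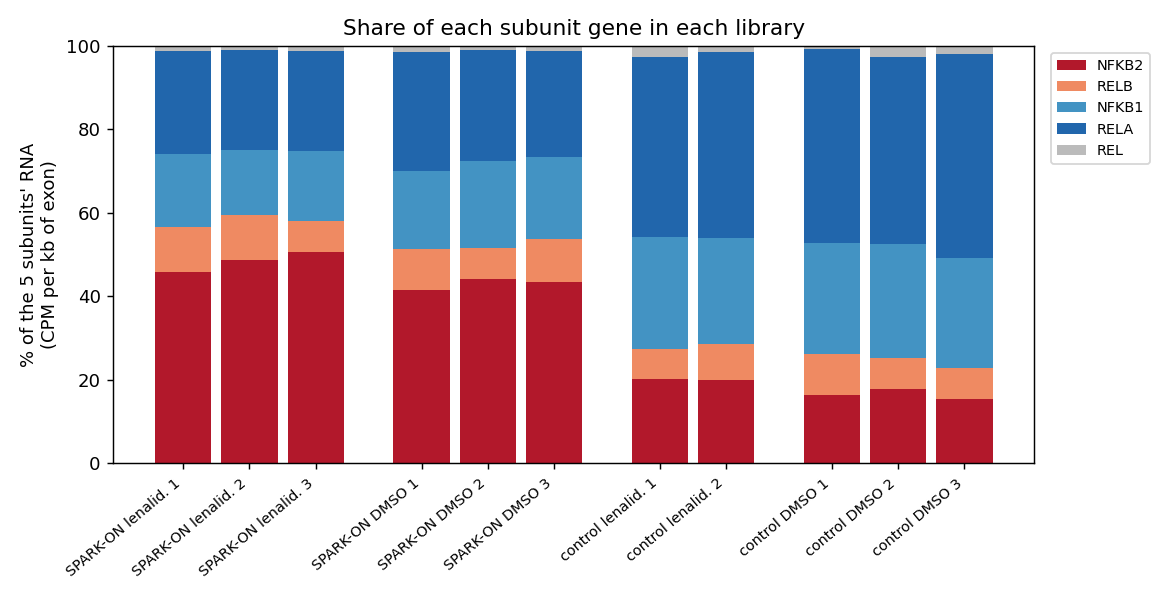
Share of each subunit gene in the summed CPM per kb of exon of the 5 subunits (percent, stacked bars, 1 bar per library). NFKB2 holds 41.5% to 50.7% in the 6 SPARK-ON libraries and 15.4% to 20.2% in the 5 control libraries.

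Among the inhibitors, NFKBIA (chr14:35401511-35404749, minus strand), which encodes IkB alpha and is the fast feedback inhibitor of the canonical pathway, was higher in every SPARK-ON library. It had 67.9, 75.8 and 66.3 CPM in SPARK-ON cells with lenalidomide and 59.7, 69.5 and 62.6 CPM with DMSO, against 22.8 and 26.1 CPM in control cells with lenalidomide and 25.4, 22.5 and 19.6 CPM with DMSO. The lines were well apart, and within each line the treatments overlapped. NFKBIA was 2.84-fold higher in SPARK-ON cells with DMSO (log2 change 1.51, SE 0.105, adjusted p = 1.75e-09) and 2.86-fold higher with lenalidomide (log2 change 1.52, SE 0.121, adjusted p = 1.54e-08). NFKBIE (chr6:44258166-44265788, minus strand), which encodes IkB epsilon, had 31.2, 26.7 and 21.6 CPM in SPARK-ON cells with lenalidomide and 20.5, 21.4 and 22.2 CPM with DMSO, against 11.4 and 11.1 CPM in control cells with lenalidomide and 14.2, 10.7 and 8.17 CPM with DMSO. Again no SPARK-ON library overlapped a control library. NFKBIE was 1.94-fold higher with DMSO (log2 change 0.96, SE 0.162, adjusted p = 0.000107) and 2.39-fold higher with lenalidomide (log2 change 1.26, SE 0.187, adjusted p = 3.24e-05).

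NFKBIB (chr19:38899700-38908893, plus strand), which encodes IkB beta, went the other way. It had 26.7, 21.6 and 22.8 CPM in SPARK-ON cells with lenalidomide and 23.8, 22.5 and 27.1 CPM with DMSO, against 29.97 and 35.8 CPM in control cells with lenalidomide and 33.5, 27.8 and 29 CPM with DMSO. The lines did not overlap within a treatment but came close with DMSO. The log2 change of NFKBIB was -0.47 with lenalidomide (SE 0.129, adjusted p = 0.00766) and -0.30 with DMSO (SE 0.114, adjusted p = 0.0459). The call with DMSO was lost under 6 other settings, among them scaling by library totals (-0.20, adjusted p = 0.147) and DESeq2 (-0.29, adjusted p = 0.0803), and without any one of 4 libraries, SPARK-ON DMSO replicates 1 and 2 and control DMSO replicates 1 and 3 (adjusted p = 0.0587 to 0.172). The call with lenalidomide was lost without control lenalidomide replicate 2 (-0.34, adjusted p = 0.113). The ratio of NFKBIA to NFKBIB counts was 2.54 to 3.5 in SPARK-ON libraries with lenalidomide and 2.31 to 3.09 with DMSO, against 0.730 to 0.762 and 0.675 to 0.808 in control libraries with lenalidomide and DMSO. NFKBIB shares 40 exonic bases with SIRT2 on the other strand, and the strand setting of the counting was not given.

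TNFAIP3 (chr6:137867188-137883312, plus strand) encodes a ubiquitin-editing enzyme that shuts signalling down upstream of the IKK kinases. It had 20.5, 17.7 and 18.7 CPM in SPARK-ON cells with lenalidomide and 13.7, 13.3 and 13.1 CPM with DMSO, against 2.40 and 3.99 CPM in control cells with lenalidomide and 4.94, 3.63 and 3.97 CPM with DMSO. The 2 SPARK-ON groups stood apart from the control libraries and from each other, while the control groups overlapped. With DMSO, TNFAIP3 was 3.19-fold higher in SPARK-ON cells (log2 change 1.67, SE 0.164, adjusted p = 1.72e-07). With lenalidomide it was 5.86-fold higher (log2 change 2.55, SE 0.199, adjusted p = 1.05e-08), on 38 to 75 reads per control library. An antisense gene, AL357060.1, shares 95 of its exonic bases.

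TNFAIP2 (chr14:103123442-103137439, plus strand) is a TNF-induced gene known for a role in thin membrane bridges between cells. Lengths of the expressed transcripts were not measured, so ranks per length are uncertain. Per kb of merged exon, TNFAIP2 had the highest level of the 10 genes in every group. It had 33.0 ± 1.22 and 27.6 ± 1.36 CPM per kb in SPARK-ON cells with lenalidomide and with DMSO. In control cells it had 19.0 ± 0.921 and 15.2 ± 0.35 CPM per kb with lenalidomide and with DMSO. In SPARK-ON cells with DMSO it differed from NFKBIA, at 26.9 ± 2.12 CPM per kb, by less than the spread between replicates. TNFAIP2 had 171, 159 and 168 CPM in SPARK-ON cells with lenalidomide and 131, 143 and 142 CPM with DMSO, against 92.1 and 98.7 CPM in control cells with lenalidomide and 76.7, 78.3 and 74.8 CPM with DMSO. None of the 4 groups overlapped another. TNFAIP2 was 1.81-fold higher in SPARK-ON cells with DMSO (log2 change 0.86, SE 0.071, adjusted p = 1.85e-08) and 1.74-fold higher with lenalidomide (log2 change 0.80, SE 0.0807, adjusted p = 3.27e-07).

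Scaling by library totals alone moved the balance of all calls between the lines, to 4262 higher and 2547 lower with DMSO (3395 and 3280 with TMM) and to 4045 higher and 2396 lower with lenalidomide (3165 and 3169 with TMM). The 6 genes that were higher stayed higher and called under it in both settings.

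**Figure D3:**
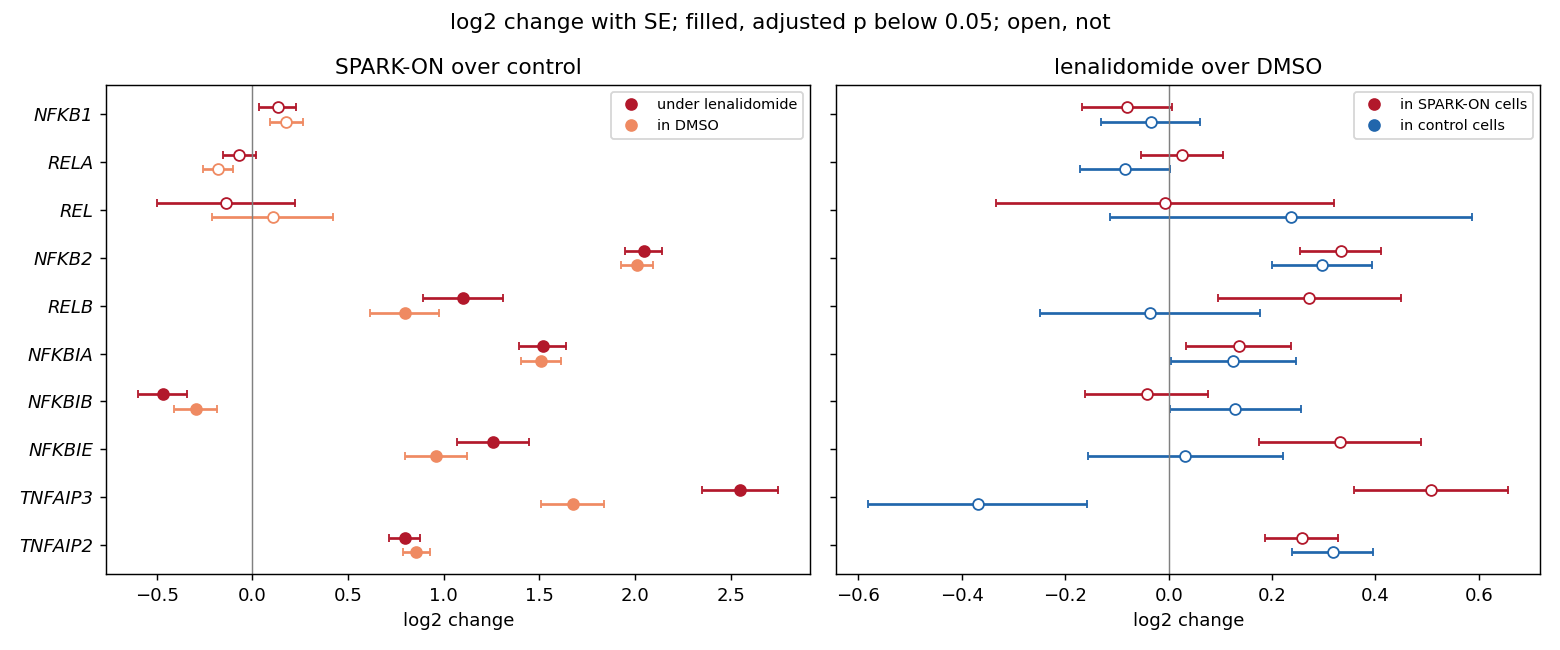
Log2 change of each gene with its SE, SPARK-ON over control (left) and lenalidomide over DMSO (right), on x axes of different scale. Filled points passed an adjusted p of 0.05: 7 genes in each line comparison and 0 in each drug comparison.

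The other genes of the pathway were taken as 5 lists by role. Of 24 ligands and receptors 13 passed the filter, and 9 of these were called higher and 1 lower in SPARK-ON cells with DMSO, where 41.6% of all genes were called. That count holds genes near 0 in control cells that passed the filter through SPARK-ON cells, so nothing is read from it: IL1A averaged 0.347 CPM in SPARK-ON cells with DMSO, against 0.0319 CPM in control cells, IL1B 0.397 against 0.0379 CPM and TLR1 0.80 against 0.0521 CPM. Among genes with a mean of at least 5 CPM 5 were called, and without SPARK-ON DMSO replicate 3 it was 6. TNF had no counts in any library, which allows up to 0.139 to 0.454 CPM by library. TLR6, a Toll-like receptor, had 8.46 ± 1.44 and 8.39 ± 0.492 CPM in SPARK-ON cells with lenalidomide and DMSO, against 1.43 ± 0.297 and 1.24 ± 0.344 CPM in control cells (log2 change 2.76 with DMSO, adjusted p = 1.46e-08). IL1R1, an interleukin receptor, had 4.16 ± 0.938 and 4.34 ± 0.436 CPM in SPARK-ON cells with lenalidomide and DMSO, against 0.175 ± 0.0212 and 0.605 ± 0.244 CPM in control cells, where it rested on 3 to 15 reads per library. Its co-receptor IL1RAP was lower in SPARK-ON cells (log2 change -0.85 with DMSO, adjusted p = 4.88e-06). TNFRSF1A, the main TNF receptor, was higher (0.45, adjusted p = 0.000167). With lenalidomide 7 were called higher and 1 lower, where 39.4% of all genes were called, and TLR6, IL1R1, IL1RAP and TNFRSF1A had the same direction, each called. Here 5 were called at a mean of at least 5 CPM, without SPARK-ON lenalidomide replicate 2 and without control lenalidomide replicate 1.

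Of 22 adaptors and ubiquitin enzymes that passed the filter, of 23 listed, 8 were higher and 3 lower in SPARK-ON cells with DMSO (median 0.08), and 7 and 3 with lenalidomide (median 0.13). These are 50% and 45.5% of the list, near the 41.6% and 39.4% called among all genes. TRAF1 was higher by 2.17 (adjusted p = 2.15e-07), BIRC3 by 2.40 (adjusted p = 8.24e-07) and the interleukin-receptor kinase IRAK2 by 1.495 on the log2 scale (adjusted p = 8.5e-07), all with DMSO. IRAK1 was lower, with 996 ± 41.7 CPM in SPARK-ON cells and 1396 ± 7.5 CPM in control cells with DMSO (log2 change -0.49, adjusted p = 1.73e-06). BIRC3 encodes a ubiquitin ligase of the complex that keeps NIK low, and TRAF1 a receptor adaptor that binds it.

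All 9 kinases passed the filter, and 5 were higher and 0 lower with DMSO (median 0.31), and 3 were higher and 0 lower with lenalidomide (median 0.21). The shares called were 55.6% with DMSO, beside 41.6% of all genes, and 33.3% with lenalidomide, beside 39.4%. Without control lenalidomide replicate 1, 5 kinases were called with lenalidomide. MAP3K14, the gene of NIK, had 126 ± 9.55 and 103 ± 1.86 CPM in SPARK-ON cells with lenalidomide and DMSO, against 49.9 ± 1.54 and 48.8 ± 7.24 CPM in control cells with lenalidomide and DMSO (log2 change 1.08 with DMSO, adjusted p = 4.62e-08). IKBKE, an IKK-related kinase, was higher by 1.69 (adjusted p = 7.36e-09), and MAP3K8, a MAP kinase activator that the NFKB1 precursor binds, by 1.30 (adjusted p = 0.000878) with DMSO. MAP3K8 was not called with lenalidomide (0.41, adjusted p = 0.303). IKBKG, the regulatory subunit of IKK, was higher by 0.72 (adjusted p = 3.13e-05), and is uncertain because a near-identical pseudogene exists. The core kinases CHUK, IKBKB, TBK1 and MAP3K7 did not pass the test in either setting. CHUK, for example, had 114 ± 2.58 CPM in SPARK-ON cells and 103 ± 4.76 CPM in control cells with DMSO.

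Of 10 other inhibitors and IkB-like proteins, 1 was higher and 3 lower in SPARK-ON cells with DMSO (median -0.04), and 1 and 1 with lenalidomide (median -0.09). The 40% called with DMSO lies near the 41.6% of all genes, and the 20% with lenalidomide below the 39.4%. The gene called higher in both settings was TNIP3. It averaged 0.174 CPM in SPARK-ON cells and 0 CPM in control cells with DMSO, and 0.718 against 0.0266 CPM with lenalidomide. TNIP3 passed the filter through SPARK-ON cells, so nothing is read from its calls. With DMSO the count fell to 1 at a mean of at least 5 CPM and without SPARK-ON DMSO replicate 2, and to 2 without SPARK-ON DMSO replicate 3 and without control DMSO replicate 3. With lenalidomide it fell to 0 at a mean of at least 5 CPM and without control lenalidomide replicate 2, and to 1 without control lenalidomide replicate 1 and without SPARK-ON lenalidomide replicate 2 or 3. BCL3, an IkB-like partner of the NFKB1 and NFKB2 products, had 16.9 ± 3.12 CPM in SPARK-ON cells and 25.7 ± 2.14 CPM in control cells with DMSO (log2 change -0.60, adjusted p = 0.000949). PDLIM2, a ligase for RELA, was also lower (-0.92, adjusted p = 0.00973), as was TNIP1, a binding partner of the TNFAIP3 protein (-0.21, adjusted p = 0.042). With lenalidomide BCL3 and TNIP1 were not called, at -0.17 (adjusted p = 0.389) and -0.16 (adjusted p = 0.165). Of 38 target genes 37 were in the table by symbol and 24 passed the filter. With DMSO 12 were higher and 3 lower (median 0.45), and with lenalidomide 13 and 2 (median 0.49), which is 62.5% of the genes tested each time, beside 41.6% and 39.4% of all genes. ICAM1, an adhesion molecule, had 18.4 ± 1.99 and 16.8 ± 0.892 CPM in SPARK-ON cells with lenalidomide and DMSO, against 2.95 ± 0.93 and 2.49 ± 0.677 CPM in control cells (log2 change 2.74 with DMSO, adjusted p = 1.16e-09). Complement C3 had 80.7 ± 2.98 and 51.3 ± 3.64 CPM in SPARK-ON cells with lenalidomide and DMSO, while the control groups held 20 and 17 reads in all. The protease gene PLAU was higher (1.05, adjusted p = 8.73e-09) and the transcription factor KLF6 lower (-1.17, adjusted p = 1.04e-08) with DMSO. Several of the 24, such as C3, CCL2 and ICAM1, are also known targets of other factors, and low-level genes that are high in 1 line pass the filter through that line.

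**Figure D4:**
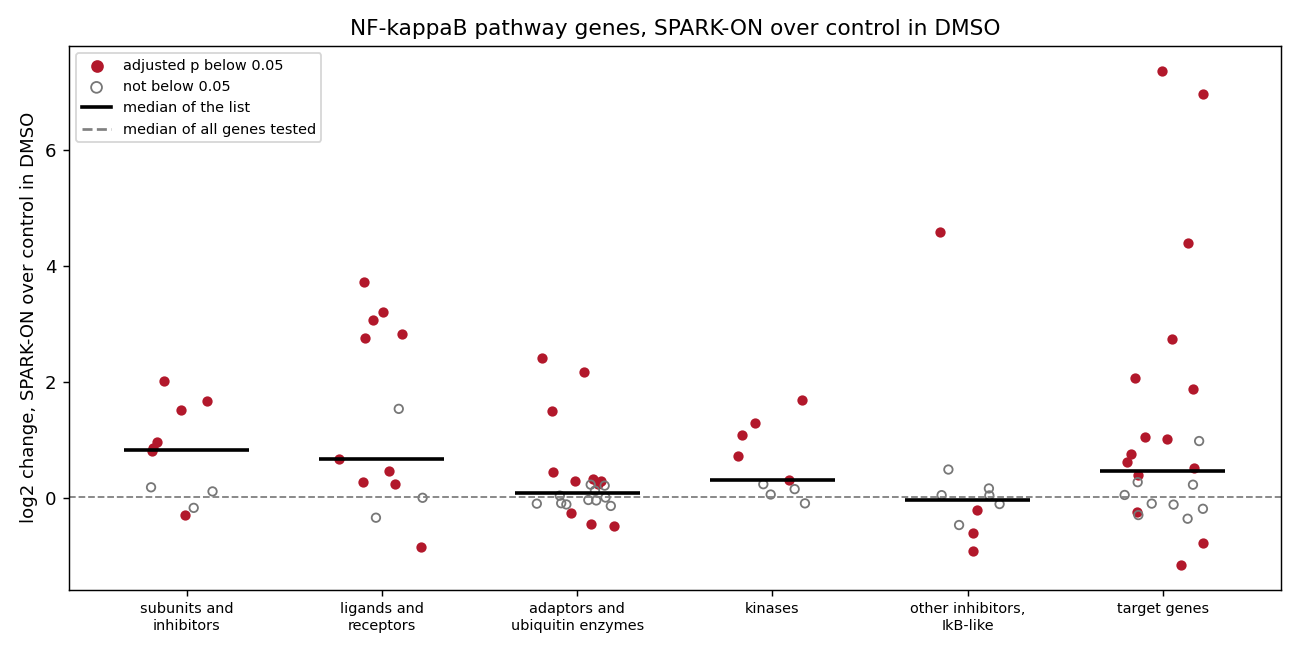
Log2 change, SPARK-ON over control in DMSO, of each gene tested in the 10 NF-kappaB genes and 5 lists of pathway genes; red points passed an adjusted p of 0.05, black lines are list medians and the dashed line is the median of all genes tested (0.01). The largest changes belong to genes with few or no reads in control cells, whose size is not a bound. The medians run from -0.04 for other inhibitors to 0.83 for the subunits and inhibitors.

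Lenalidomide was compared with DMSO within each line. In SPARK-ON cells the levels of NFKB2, TNFAIP3 and TNFAIP2 given above were higher in all 3 lenalidomide libraries than in all 3 DMSO libraries, by 1.26-fold, 1.42-fold and 1.20-fold. By that measure 3 of 10 genes lay higher without overlap, as did 9.62% of all genes tested. In the fit of all 11 libraries, edgeR called 0 of the 10 genes, where 0.0685% of all genes were called, and 4 of the 10 had an unadjusted p below 0.05, as did 5.36% of all genes (860 of 16056). DESeq2, run on 33507 genes without the filter on low counts, called 1 of the 10, NFKB2 (adjusted p = 0.0245), and 45 genes in all (0.134%). Of the 10 genes limma-voom called 0, of 14 in all (0.0872%). With weights per line limma-voom called 3, of 107 in all (0.666%). In the edgeR fit of all 11 libraries the log2 change of NFKB2 was 0.33 (SE 0.0782, adjusted p = 0.2). There TNFAIP3 had 0.51 (SE 0.149, adjusted p = 0.492) and TNFAIP2 had 0.26 (SE 0.0703, adjusted p = 0.394). The 3 genes called by limma-voom with weights per line were NFKB2 (adjusted p = 0.00536), TNFAIP3 (adjusted p = 0.0164) and TNFAIP2 (adjusted p = 0.0227).

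The fits gave different calls. The common biological coefficient of variation that edgeR estimates between replicates was 4.71% among the 6 SPARK-ON libraries, 12.9% among the 5 control libraries and 9.4% when all 11 were fitted. The fit of the 6 SPARK-ON libraries also tested fewer genes (14652, against 16056) and had 4 residual and a median of 67 prior degrees of freedom, against 7 and 10.6, and the part of each in the calls was not tested. With those 6 libraries alone, 4 of the 10 genes were called higher, where 2.6% of all genes were called (1.79% higher), and these were NFKB2, TNFAIP2 (0.25, adjusted p = 0.000353), TNFAIP3 and NFKBIE (0.34, adjusted p = 0.04). NFKBIE overlapped between the treatments, since SPARK-ON lenalidomide replicate 3 lay within the DMSO range. RELB and NFKBIA were not called with the 6 libraries, at 0.28 (SE 0.131, adjusted p = 0.302) and 0.14 (SE 0.0638, adjusted p = 0.295). In the fit of all 11 libraries the change of RELB was 0.27 (SE 0.177, 95% interval -0.10 to 0.64). NFKBIA had 0.14 there (SE 0.101, interval -0.08 to 0.35). The changes of NFKB1, RELA, REL and NFKBIB lay between -0.08 and 0.03, and their groups overlapped. The median over the 10 genes was 0.20, beside 0.01 for all genes tested. In the pathway lists, the fit of all 11 libraries called 2 genes, C3 (0.66, adjusted p = 0.0133) and PLAU (0.51, adjusted p = 0.0162). Both were target genes, 8.33% of the 24 tested, beside 0.0685% of all genes. Neither was called when any 1 of the 6 SPARK-ON libraries was left out. The fit of those 6 libraries alone called 4 target genes, all higher, and 2 kinases, 1 higher and 1 lower, beside 2.6% of all genes. In the fit of all 11 libraries MAP3K14 had a change of 0.29 (SE 0.0941, adjusted p = 0.696). BCL3 had 0.32 (adjusted p = 0.864) and IRAK4 had -0.25 (adjusted p = 0.91) in the same fit.

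In control cells lenalidomide libraries were again higher without overlap for NFKB2 and TNFAIP2, 2 of the 10 genes, as were 7.69% of all genes, on 2 libraries against 3. NFKB2 was higher by 0.30 (SE 0.0959, adjusted p = 0.81) and TNFAIP2 by 0.32 (SE 0.079, adjusted p = 0.37) in log2 change, so neither passed the test. By edgeR 0 of the 10 genes were called, where 0.0436% of all genes were (0.0374% higher and 0.00623% lower), with 2 of the 10 at an unadjusted p below 0.05, as were 4.82% of all genes (774). DESeq2 and limma-voom each called 0 of the 10, of 24 (0.0716%) and 9 (0.0561%) genes in all. NFKB1 lay lower without overlap by a small margin (-0.03, SE 0.096, adjusted p = 1), as did 6.86% of all genes. TNFAIP3 had a change of -0.37 (SE 0.212, adjusted p = 1), with overlapping groups. In the lists 0 genes were called, and the smallest p of each list belonged to IL1R1, TRAF1 (0.60, adjusted p = 1), MAP3K8 (0.84, adjusted p = 0.92), TNIP3 and SDC4 (0.40, adjusted p = 0.469), of which IL1R1 had 3 reads in each lenalidomide library and TNIP3 averaged 0.0266 CPM.

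Whether the drug acted differently in the lines was tested by the difference of both log2 changes, SPARK-ON minus control. By edgeR 0 of the 16056 genes were called and 669 had an unadjusted p below 0.05, with 3 of 33507 called by DESeq2 and 0 by limma-voom. Among the 10 genes TNFAIP3 had the largest difference, 0.88 (SE 0.259, 95% interval 0.33 to 1.42, unadjusted p = 0.00338, adjusted p = 1), and it was 0.57 to 1.30 when each library was left out in turn. For NFKB2 the difference was 0.04 (SE 0.124, interval -0.23 to 0.30), and for TNFAIP2 it was -0.06 (SE 0.106, interval -0.28 to 0.16). For NFKBIA it was 0.01 (interval -0.32 to 0.34), for RELB 0.31 (interval -0.28 to 0.89) and for NFKBIE 0.30 (interval -0.22 to 0.82). Each drug comparison shares libraries with each line comparison.

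The order of the group means was the same for NFKB2, NFKBIA, NFKBIE and TNFAIP2, with SPARK-ON lenalidomide highest, then SPARK-ON DMSO, control lenalidomide and control DMSO. Neighbours in that order were clear of each other for NFKB2 and TNFAIP2, while for NFKBIA and NFKBIE the treatments within a line overlapped. TNFAIP3 and RELB had control DMSO above control lenalidomide, with overlapping libraries. Among 10637 other genes with a mean of at least 5 CPM in the 11 libraries, those closest in pattern by correlation of log2 CPM were LASP1 and TGM2 for NFKB2, APOL1 and VEGFC for NFKBIA, WBP2 and SELENBP1 for TNFAIP3, and FSTL3 and ABLIM3 for TNFAIP2. The libraries form 2 clusters by line, so no pooled coefficient is given.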

How the data were processed

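Raw counts per gene, in whole numbers and without normalization, were deposited by the authors. Per the submitters' processing notes, FastQC, fastp, HTSeq and edgeR were used with genome hg38; the aligner, versions, strand setting and annotation release are not given in the sources used here. Of the columns, 11 were matched to labelled samples by their descriptions. The other 3 matched no labelled sample and were not used, so comparisons with baseline cells that had been planned were not made.

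The test was run with edgeR 4.0.16 under R 4.3.3: filterByExpr (minimum count 10), TMM scaling, glmQLFit of the 4 groups in a one-way layout (7 residual degrees of freedom) and two-sided glmQLFTest. P-values were adjusted by Benjamini-Hochberg over all 16056 genes, and a gene is called at an adjusted p below 0.05. Changes are log2 fold changes, SPARK-ON over control or lenalidomide over DMSO, with SE from the change and its F statistic. Alternatives used DESeq2 1.42.0 and limma 3.58.1. The procedure was also run on simulated counts. These gave each gene the same spread in both lines, so they do not cover the unequal spread of the real lines. The 10 genes and the lists were chosen with earlier results of these data known. From each list up to 4 called genes with the smallest p were named, with a mean of at least 1 CPM, or otherwise the gene with the smallest p; the core kinases were named after their values were seen. SOD2 was not matched by symbol. Exon lengths and positions came from GENCODE 29, promoters from RefSeq. Counting error sets a floor of 3 counts where a gene has 0. Some marker genes are not reported here.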

Additional observations from a re-analysis of the deposited data

How the results depend on the processing

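Of 820 alternative values for the log2 changes of the 10 genes, 798 stayed on their side of the threshold, 11 fell below it and 11 passed it. The sign differed from that of the fit in 31 of the 820, all for changes that were called neither in the fit nor in the alternative and whose size in the fit was at most 0.24; 12 of the 31 were REL. The alternatives were RLE and library-total scaling, no filter, a mean of at least 5 CPM, DESeq2, limma-voom with and without weights per line, fits of only the groups compared, a replicate block, each library left out, and a robust prior that was chosen after seeing the data. The 6 genes higher in SPARK-ON cells stayed called under all of them in both treatments. For lenalidomide in SPARK-ON cells the fit called 11 genes, against 35 without a filter and 45 by DESeq2 (33507 genes each), 107 with weights per line and 381 with only the groups compared. Members called there were 0 of 10, against 1 by DESeq2, 3 with weights and 4 with only the groups compared. Kinases were 0 of 9 in the fit, against 1 with weights and 2 with only the groups compared, 1 higher and 1 lower. Target genes were 2 of 24 in the fit, against 4 with only the groups compared. The shares of all genes called were 0.0685% in the fit, 0.134% by DESeq2, 0.666% with weights and 2.6% with only the groups compared. For lenalidomide in control cells 7 genes were called, against 27 without a filter, 2 at a mean of at least 5 CPM, 24 by DESeq2, 1 with weights and 0 with only the groups compared (295 at an unadjusted p below 0.05). The difference between lines called 0 genes, against 1 without a filter and 3 by DESeq2. At a mean of at least 5 CPM, which leaves fewer genes, ligands and receptors called between the lines were 5 with DMSO (10 in the fit) and 5 with lenalidomide (8), and other inhibitors 1 (4) and 0 (2); with weights the last was 1.

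Leaving out 1 library at a time gave 0 to 5 genes called for lenalidomide in SPARK-ON cells, 0 to 0 target genes there, and 0 to 21 genes in control cells, where 21 came without control DMSO replicate 1. Between the lines it gave 6 to 9 ligands and receptors and 1 to 3 other inhibitors with DMSO, and 5 to 8 ligands and receptors, 3 to 5 kinases and 0 to 2 other inhibitors with lenalidomide. No pairing by replicate number was seen: the deviations of 15 same-numbered pairs correlated at -0.182 to 0.0372, none over 0.1. These are deviations from the means of groups of 2 or 3 libraries, so low correlations cannot exclude a pairing. With the replicate block, lenalidomide called 2 genes and 0 target genes in SPARK-ON cells and 1 gene in control cells, and NFKBIB between the lines with DMSO was not called (-0.30, adjusted p = 0.0715).

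Depth limits the low genes: 3 counts stand for 0.139 to 0.454 CPM by library, and control cells had 38 to 91 reads of TNFAIP3. The lone libraries left when a control lenalidomide library is dropped are assumed to vary like the other groups. The causes of these shifts were not tested.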
